A study of Mus musculus with 6 samples.

Results

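The genes described here are 35 that cells use in G2 and mitosis, from the cyclins that start division to the proteins that build the spindle and split the cell. They were chosen by symbol, as a list of G2 and mitosis genes, and all 35 were found among the 37060 genes of the deposited table, each with enough signal to be tested. They were compared between uterine tissue of SRC-2d/d mice (called mutants) and SRC-2f/f mice (called controls), both collected on gestation day 5, with 3 mice in each group and 1 library per mouse. SRC-2, the product of the gene Ncoa2, helps steroid hormone receptors to activate transcription. The tissue label says uterus only. The sources used here give neither the Cre driver, the cells in which the allele was deleted, the strain nor the age of the mice, nor whether the SRC-2f/f mice carried Cre.

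A dividing cell switches on a shared set of genes late in its cycle. Cyclins A2, B1 and B2 activate the kinase Cdk1, which drives the cell into mitosis, and the factor FoxM1 together with the MuvB complex raises transcription of most of the set. Kinetochore proteins and spindle motors then attach and align the chromosomes, the checkpoint holds division until all are attached, and the anaphase-promoting complex destroys securin and cyclin B so that the chromosomes part. In the mouse uterus, division is known to move from the epithelium to the stroma around implantation, and stromal cells near the embryo divide before they turn into decidual cells. Messenger RNA of these genes is therefore widely read as a sign of how many cells are dividing. In bulk tissue, fewer dividing cells and less of the RNA per dividing cell cannot be told apart.

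The libraries held 129905950 to 195782326 reads assigned to genes. Values are normalized counts, that is, reads per gene scaled by 1 size factor for each library, with no correction for gene length, so that levels of different genes are not compared. A member had between 368 and 61914 reads in a library, so counting error was small beside the spread between mice. Ncoa2 had 7620, 6667 and 7409 normalized counts in mutants 1 to 3, against 13208, 13090 and 14495 in controls 1 to 3, and mutant 2 was the lowest (log2 difference -0.91, limma adjusted p = 0.00953, exact permutation p = 0.1, the smallest that 3 against 3 mice allow). Uterine stroma, smooth muscle, epithelium and endothelium markers were all detected. Over the 36154 genes tested the median log2 difference was -0.01.

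The mitosis genes were far lower in mutants 1 and 3 than in any control, and were close to the control level in mutant 2. In mutant 1, 34 of the 35 genes lay below all 3 controls, at 9.58% to 27.8% of the control mean (median of the 34: 15.7%). In mutant 3, 33 genes lay below all controls, and the 34 stood at 25.3% to 78.2% (median 38.4%). In mutant 2 only 1 gene lay below the controls, 28 lay within their range and 6 lay above it, and the 34 stood at 71.3% to 145% (median 89.7%). Among the 11719 tested genes with a control mean of at least 1000, 46.4%, 24.6% and 37.9% lay below all controls in mutants 1 to 3. In mutant 2, 25.1% of these genes lay above all controls. Pttg1 was the 1 gene that was not lower in any mutant. Summed over the 35 genes, the level was 68673, 383734 and 163203 normalized counts in mutants 1 to 3, against 292828, 406108 and 473401 in controls 1 to 3. Mutant 2 thus lay between controls 1 and 2, while mutants 1 and 3 lay below every control. The means of these sums were 205203 ± 161675 in mutants and 390779 ± 91257 in controls (SD, n = 3).

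**Figure D1:**
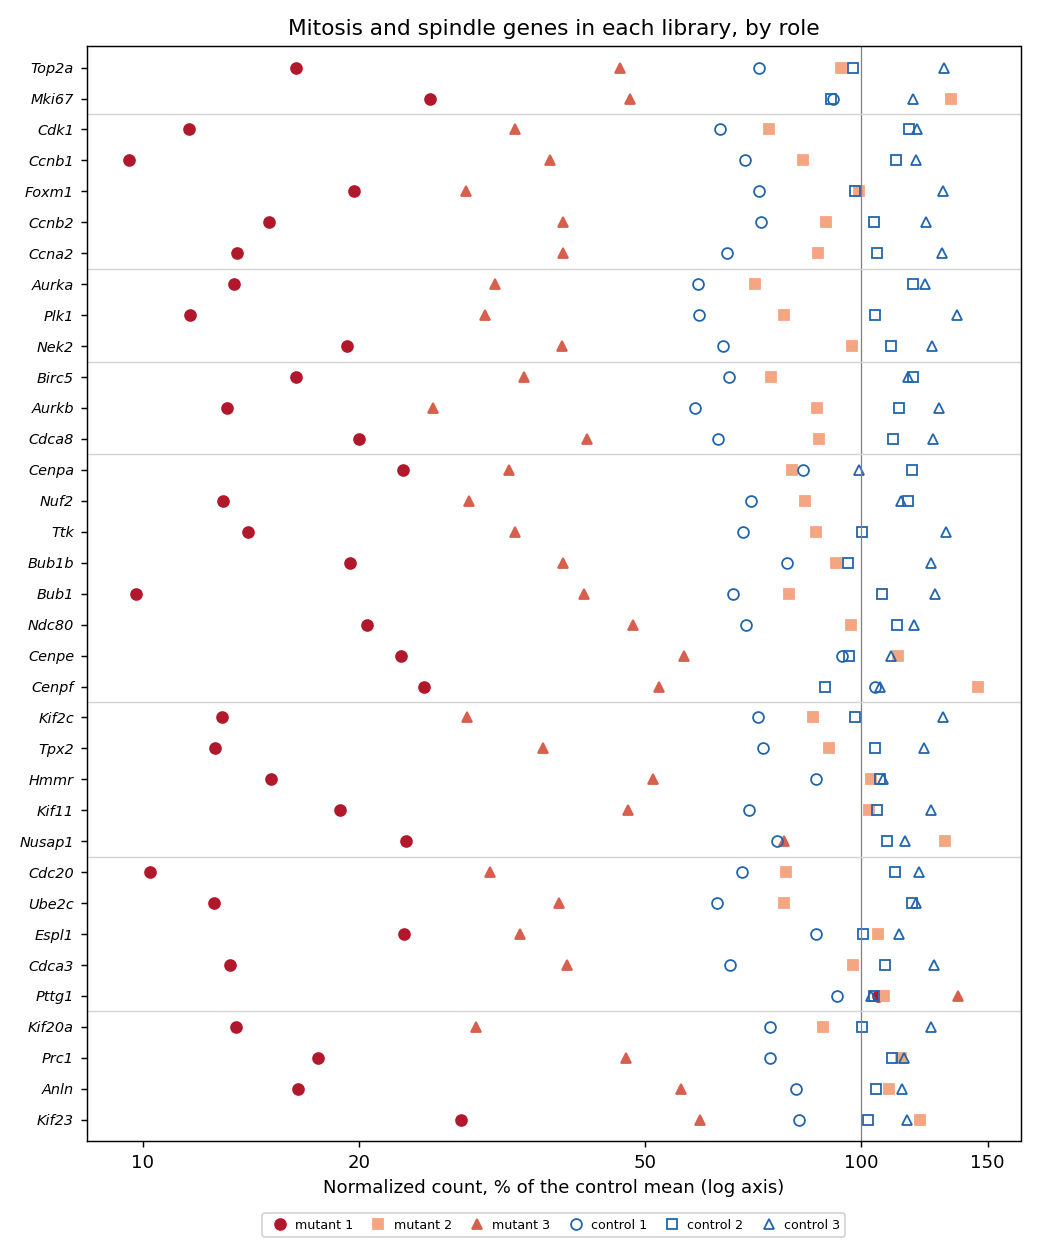
Normalized count of each of the 35 genes in every library, as a percentage of the gene's mean over the 3 controls (log axis), with filled symbols for mutants, open symbols for controls and lines between the groups of roles. Mutant 1 is at the left at 9.58% to 27.8% and mutant 3 lies between mutants 1 and 2 for all genes other than Pttg1, while mutant 2 falls among or beyond the controls in most rows.

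With all 6 libraries, limma called 6 of the 35 genes lower at an adjusted p under 0.05 (Cenpa, Aurka, Birc5, Cdk1, Nuf2 and Cdc20), against 4.08% of all tested genes called lower. It called 0 higher, against 5.34% of all tested genes. At an unadjusted p under 0.05 there were 30 lower genes and 0 higher ones, and 22.5% of all tested genes reached that level in either direction. The median log2 difference of the 35 genes was -1.35, the range being -1.74 to 0.21. It compares means of logs, so it need not match the percentages of the control mean given here. The median was -1.03 by edgeR and -1.03 by DESeq2. On the recovered reads edgeR called 0 (lowest adjusted p = 0.0587, with 23 lower and 0 higher at an unadjusted p under 0.05, and 3.58% of all genes called lower and 5.52% higher). DESeq2 called 6 lower, Plk1 taking the place of Nuf2, and 0 higher, against 5.87% and 8.12% of the genes for which it gave an adjusted p. The groups overlapped for 33 genes. Mutants were all below controls for 1 gene (12.1% of all tested genes were so separated) and all above them for 1 gene (13.4% of all tested genes).

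The count of calls turned on single libraries. Without mutant 2, limma called 34 of the 35 genes lower, against 7.84% of all genes, and 0 higher, against 7.24%. The median log2 difference was then -2.02, and -0.74 without mutant 1. Without mutant 1, mutant 3 or any 1 control, 0 genes were called, and between 8 and 28 had an unadjusted p under 0.05. Mutant 2 was the highest mutant for 34 of the 35 genes, so that leaving it out widens their difference by construction. Calls without mutant 2, here and below, therefore describe the other libraries and are no separate support. The share of all genes to set beside them is the 7.84% above. All 34 genes kept a log2 difference below 0 when each library was left out in turn, other than Nusap1 without mutant 1 (0.040, adjusted p = 0.959).

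**Figure D2:**
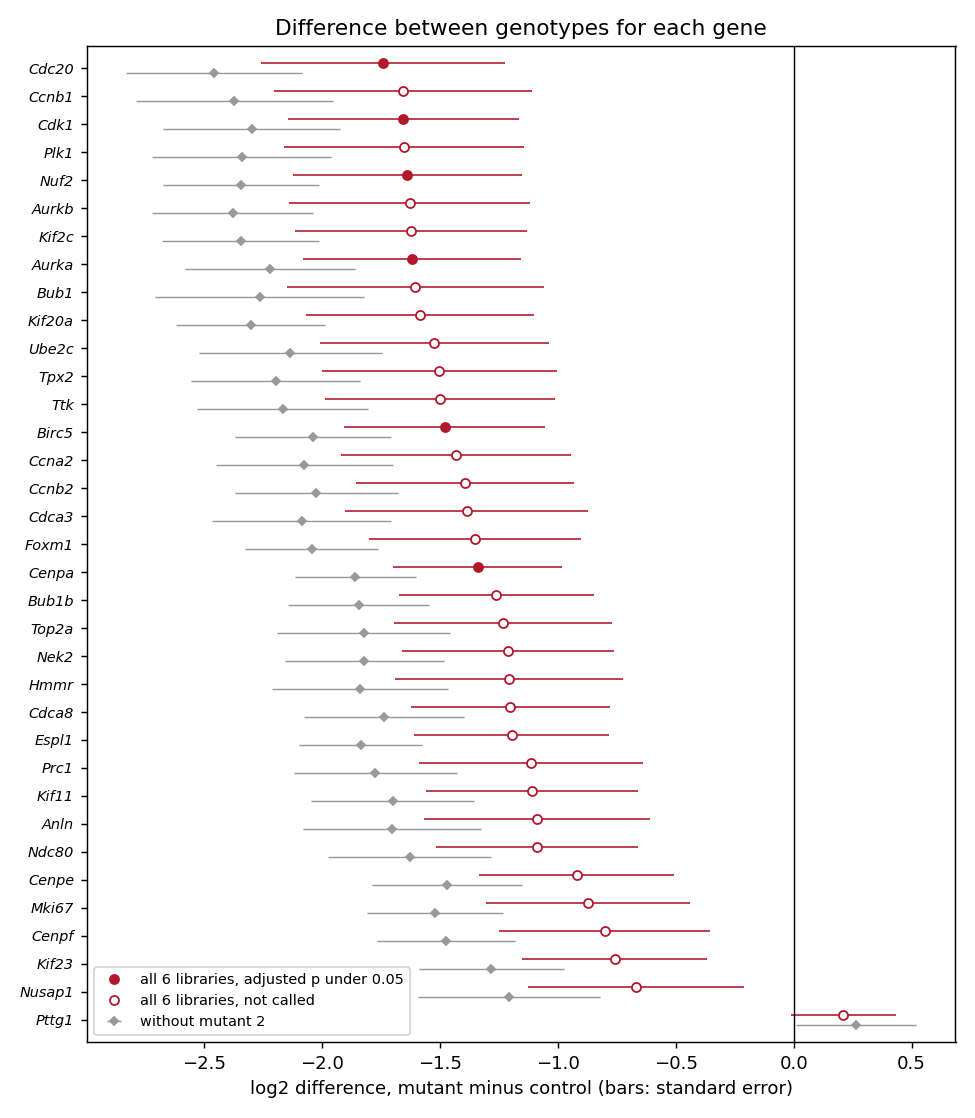
Log2 difference (mutant minus control) of each gene with its standard error, from all 6 libraries (red, filled where the adjusted p was under 0.05) and without mutant 2 (grey). In all rows but that of Pttg1 the grey point lies to the left of the red one, and the 6 filled points lie between -1.74 and -1.34.

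The promoters of these genes are shown because the set is known to be switched on together through short elements near the start of transcription. The cell cycle genes homology region (CHR), written TTTGAA or in its variant TTTAAA, is bound by the MuvB complex, and CCAAT boxes upstream of it are bound by NF-Y. In the RefSeq promoter table (build GRCm38.p6, 250 bases before to 50 bases after each start), 30 of the 35 genes were matched. Counting both strands, TTTGAA was present in 22 of the 30 (73.3%), against 17.9% of all 32851 promoters, and TTTAAA in 9 (30.0%), against 13.2%. CCAAT was present in 23 (76.7%), against 37.4%, and CCAAT together with either form of the CHR in 21 (70.0%), against 10.7%. TTTNNCGC, a form of the E2F element, was present in 2 (6.67%), against 5.17%. Each motif was searched on its own, so that letters could count towards more than 1 motif, and a match says nothing on whether a factor was bound in these uteri. The stretches below are those of the 6 genes called lower with all libraries and of both B-type cyclins. Each runs 5′ to 3′ on the gene's strand from 130 bases before to 25 bases after the start, with CHR and CCAAT letters of either strand in capitals (TTCAAA and ATTGG are the reverse strand forms).
Cenpa, chr5:30666756-30666910, plus strand: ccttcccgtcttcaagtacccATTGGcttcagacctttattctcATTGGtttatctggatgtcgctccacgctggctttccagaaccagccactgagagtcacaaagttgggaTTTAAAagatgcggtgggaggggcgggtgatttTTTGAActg
Aurka, chr2:172370546-172370700, minus strand: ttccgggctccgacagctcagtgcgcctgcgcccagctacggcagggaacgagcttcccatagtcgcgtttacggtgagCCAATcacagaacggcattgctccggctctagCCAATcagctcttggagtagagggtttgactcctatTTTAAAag
Birc5, chr11:117849107-117849261, plus strand: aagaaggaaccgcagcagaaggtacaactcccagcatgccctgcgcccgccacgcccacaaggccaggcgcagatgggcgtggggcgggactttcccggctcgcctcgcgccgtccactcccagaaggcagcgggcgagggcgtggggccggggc
Cdk1, chr10:69352888-69353042, minus strand: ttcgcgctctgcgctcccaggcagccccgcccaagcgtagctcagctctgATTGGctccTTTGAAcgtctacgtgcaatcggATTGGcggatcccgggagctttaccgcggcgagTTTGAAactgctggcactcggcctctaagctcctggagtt
Nuf2, chr1:169531440-169531594, minus strand: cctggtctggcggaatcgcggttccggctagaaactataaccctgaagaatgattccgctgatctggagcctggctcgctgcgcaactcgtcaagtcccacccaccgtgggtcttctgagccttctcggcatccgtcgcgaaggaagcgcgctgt
Cdc20, chr4:118437319-118437473, minus strand: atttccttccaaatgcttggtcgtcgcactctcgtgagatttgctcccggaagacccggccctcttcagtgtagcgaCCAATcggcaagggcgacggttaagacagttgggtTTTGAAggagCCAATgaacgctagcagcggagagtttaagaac
Ccnb1, chr13:100786462-100786616, minus strand: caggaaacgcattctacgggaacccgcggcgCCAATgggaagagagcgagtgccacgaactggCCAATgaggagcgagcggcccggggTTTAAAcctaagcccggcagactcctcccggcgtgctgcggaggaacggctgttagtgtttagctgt
Ccnb2, chr9:70421530-70421684, minus strand: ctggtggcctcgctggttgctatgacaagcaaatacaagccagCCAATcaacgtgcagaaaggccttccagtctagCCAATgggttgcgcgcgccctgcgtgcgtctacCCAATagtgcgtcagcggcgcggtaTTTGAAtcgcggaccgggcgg
Cenpa, Aurka, Cdk1, Cdc20 and both cyclins carry CCAAT boxes and a CHR in these stretches, whereas Birc5 and Nuf2 carry neither there. In the full windows Nuf2, Nusap1 and Pttg1 were the 3 genes with no match to either element, against 45.7% of all promoters. For Pttg1 that window belongs to 1 annotated start, within 50 bases of which only 2 of its 7 protein-coding transcripts in GENCODE M21 begin, and the other starts were not searched.

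Mitotic entry is set by Cdk1, its cyclins and FoxM1. Cdk1, the kinase itself, had 1645, 10551 and 4671 normalized counts in mutants 1 to 3, against 9030, 16510 and 16980 in controls 1 to 3. Mutants 1 and 3 lay below all controls and mutant 2 between controls 1 and 2, and Cdk1 fell by 1.65 on the log2 scale (SE 0.49, adjusted p = 0.0489). Ccnb1, which encodes cyclin B1, had 1162, 10085 and 4474 in mutants, against 8369, 13554 and 14476 in controls. It had the lowest share of the control mean of any member in mutant 1 (9.58%) and the widest gap between mutants, mutant 2 being 8.68 times mutant 1, but was not called (-1.66, SE 0.55, adjusted p = 0.0756). Ccnb2, which encodes cyclin B2, had 1286, 7660 and 3305 in mutants, against 6237, 8947 and 10572 in controls (-1.39, SE 0.46, adjusted p = 0.0787). Ccna2, the gene of cyclin A2, which acts in S phase and early mitosis, had 2093, 13443 and 5944 in mutants, against 10050, 16267 and 20043 in controls (-1.43, SE 0.49, adjusted p = 0.0864). In each of these cyclin genes mutant 2 was within the control range. Foxm1 had 1873, 9443 and 2688 in mutants, against 6865, 9333 and 12366 in controls (-1.35, SE 0.45, adjusted p = 0.0781), and here mutant 3 was nearer to mutant 1 than for the cyclins. Without mutant 2 all 5 genes were called, with log2 differences of -2.37 to -2.02.

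Among the kinases that act beside Cdk1, Aurka encodes Aurora A, which matures the spindle poles. Its values were 1126, 5979 and 2599 in mutants 1 to 3, against 4977, 9892 and 10298 in controls 1 to 3. The mutant mean was 38.6% of the control mean, the smallest share of all members, and Aurka fell by 1.62 on the log2 scale (SE 0.46, adjusted p = 0.0423). Plk1, the gene of Polo-like kinase 1, had 1055, 7080 and 2717 in mutants, against 5391, 9498 and 12331 in controls (-1.65, SE 0.51, adjusted p = 0.0580). Nek2, a kinase that separates the centrosomes, had 822, 4138 and 1637 in mutants, against 2742, 4701 and 5355 in controls (-1.21, SE 0.45, adjusted p = 0.116). For both genes mutant 2 lay between controls 1 and 2. Without mutant 2 all 3 kinases were called, with log2 differences of -2.34 to -1.82.

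The chromosomal passenger complex corrects faulty attachments of chromosomes to the spindle. Birc5, which encodes its subunit survivin, had 1185, 5431 and 2460 in mutants 1 to 3, against 4749, 8577 and 8440 in controls 1 to 3, and fell by 1.48 (SE 0.42, adjusted p = 0.0428). Aurkb, the gene of its kinase Aurora B, had 1471, 9743 and 2841 in mutants, against 6586, 12665 and 14401 in controls (-1.63, SE 0.51, adjusted p = 0.0629). Mutant 3 stood at 25.3% of the control mean for Aurkb, its lowest share of any member. Cdca8, the gene of the subunit borealin, had 1280, 5603 and 2659 in mutants, against 4052, 7093 and 8073 in controls (-1.20, SE 0.42, adjusted p = 0.0956). All 3 subunits were lower than every control in mutants 1 and 3 and within the control range in mutant 2.

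Of the 8 kinetochore, centromere and checkpoint genes, 2 were called lower by limma, against 4.08% of all tested genes, and 0 by edgeR. All 8 had a log2 difference below 0, and 7 had an unadjusted p under 0.05. Cenpa, the histone H3 variant that marks the centromere, had 2587, 9007 and 3634 in mutants 1 to 3, against 9319, 13213 and 11164 in controls 1 to 3. It was the 1 member with every mutant below every control, though mutant 2 missed the lowest control narrowly, and it had the smallest adjusted p of the set (-1.34, SE 0.36, adjusted p = 0.0305). Nuf2, a subunit of the NDC80 complex that grips microtubules, had 747, 4820 and 1641 in mutants, against 4057, 6698 and 6559 in controls (-1.64, SE 0.49, adjusted p = 0.0495). Ndc80, its partner in that complex, had 824, 3876 and 1932 in mutants, against 2775, 4494 and 4755 in controls, and was not called (-1.09, SE 0.43, adjusted p = 0.138). The partners thus had the same order of libraries among the mutants but different distances from the controls.

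The checkpoint kinase genes Ttk and Bub1 and the checkpoint gene Bub1b were not called with all libraries. Ttk, which encodes the kinase MPS1, had 418, 2579 and 983 in mutants 1 to 3, against 2042, 2994 and 3916 in controls 1 to 3 (-1.50, SE 0.49, adjusted p = 0.0725). Bub1 had 534, 4319 and 2242 in mutants, against 3612, 5834 and 6898 in controls (-1.60, SE 0.54, adjusted p = 0.0846), so that mutant 1 held 9.80% of the control mean. Bub1b, which encodes the checkpoint protein BubR1, had 2292, 10874 and 4534 in mutants, against 9294, 11316 and 14763 in controls (-1.26, SE 0.41, adjusted p = 0.0756). All 3 had mutant 2 inside the control range. The outer kinetochore genes Cenpe and Cenpf behaved otherwise in mutant 2. Cenpe, a kinesin, had 1822, 8970 and 4512 in mutants, against 7479, 7649 and 8743 in controls (-0.92, SE 0.41, adjusted p = 0.20), and Cenpf had 2771, 16352 and 5874 in mutants, against 11771, 10006 and 11946 in controls (-0.80, SE 0.45, adjusted p = 0.323). Mutant 2 was above every control for both, and reached 145% of the control mean for Cenpf, the highest share of the set in any library. Without mutant 2 all 8 genes of this role were called, with log2 differences of -2.34 to -1.47.

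None of the spindle motor and microtubule genes was called with all libraries. Kif2c, a kinesin that takes microtubules apart at the centromere, had 752, 4991 and 1651 in mutants 1 to 3, against 4190, 5721 and 7576 in controls 1 to 3 (-1.62, SE 0.49, adjusted p = 0.0546). Tpx2, an activator of Aurora A on the spindle, had 1744, 12449 and 4985 in mutants, against 10088, 14461 and 16880 in controls (-1.50, SE 0.50, adjusted p = 0.0771). Kif11, the motor that pushes the spindle poles apart, had 2041, 11099 and 5139 in mutants, against 7573, 11385 and 13532 in controls (-1.11, SE 0.45, adjusted p = 0.151). In these 3 genes mutant 2 lay between the lowest and the highest control. Hmmr, a microtubule-binding protein, had 1268, 8669 and 4303 in mutants, against 7254, 8925 and 8989 in controls (-1.21, SE 0.48, adjusted p = 0.147). Nusap1, which bundles spindle microtubules, had 1134, 6394 and 3817 in mutants, against 3724, 5301 and 5622 in controls (-0.67, SE 0.46, adjusted p = 0.443). It was the 1 gene besides Pttg1 for which mutant 3 was not below the controls, as it passed control 1, and mutant 2 exceeded them all.

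Exit from mitosis rests on the anaphase-promoting complex and its targets. Cdc20, the activator of that complex, had 1627, 12456 and 4838 in mutants 1 to 3, against 10835, 17697 and 19078 in controls 1 to 3. It had the lowest log2 difference of the set and fell by 1.74 (SE 0.52, adjusted p = 0.0499). Ube2c, the ubiquitin-conjugating enzyme of the complex, had 1264, 7851 and 3829 in mutants, against 6344, 11860 and 11998 in controls (-1.52, SE 0.49, adjusted p = 0.0677). Cdca3, an adaptor that promotes mitotic entry by turnover of the kinase Wee1, had 1172, 8647 and 3459 in mutants, against 5824, 9581 and 11214 in controls (-1.39, SE 0.51, adjusted p = 0.116). Mutant 2 was within the control range for all 3. Espl1 encodes separase, the protease that parts sister chromosomes, and had 1378, 6292 and 2003 in mutants, against 5168, 6006 and 6727 in controls (-1.20, SE 0.41, adjusted p = 0.0906). Without mutant 2 these 4 genes were called, with log2 differences of -2.46 to -1.84.

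Pttg1 encodes securin, the inhibitor of separase, and did not share the pattern of Espl1 or of any other member. It had 2266, 2309 and 2927 normalized counts in mutants 1 to 3, against 1990, 2237 and 2218 in controls 1 to 3. Every mutant was above every control, but mutants 1 and 2 exceeded the highest control by little. The means were 2501 ± 370 in mutants and 2148 ± 138 in controls (SD, n = 3), with a log2 difference of 0.21 (SE 0.22, 95% interval -0.27 to 0.69, adjusted p = 0.642), and the gene was not called under any alternative (adjusted p of 0.574 to 0.858). Its mutants differed by 1.29-fold at most, whereas for the other 34 genes the highest mutant was 3.48 to 8.68 times the lowest. Relative to the geometric mean of those 34 genes, Pttg1 stood at 1.505, 0.263 and 0.799 in mutants 1 to 3, against 0.293, 0.225 and 0.196 in controls 1 to 3, so that mutant 2 kept the proportion of the controls. No exon of another gene overlaps Pttg1 in GENCODE M21, and no other transcript there matched it over at least 200 bases at 95% identity or more.

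The genes of the central spindle and of cytokinesis were not called with all libraries. Kif20a, a kinesin that brings the passenger complex to the central spindle, had 1345, 8812 and 2899 in mutants 1 to 3, against 7440, 9980 and 12467 in controls 1 to 3 (-1.58, SE 0.48, adjusted p = 0.0558). Prc1, which cross-links the midzone microtubules, had 1752, 11337 and 4700 in mutants, against 7469, 11026 and 11468 in controls (-1.11, SE 0.48, adjusted p = 0.177). Both were within the control range in mutant 2. Anln, the gene of the contractile ring protein anillin, had 2713, 18025 and 9255 in mutants, against 13396, 17307 and 18775 in controls (-1.09, SE 0.48, adjusted p = 0.192). Kif23, the motor subunit of centralspindlin, had 1715, 7447 and 3686 in mutants, against 5064, 6306 and 7154 in controls (-0.76, SE 0.39, adjusted p = 0.281), and mutant 2 was above all controls. Without mutant 2 all 4 were called, with log2 differences of -2.30 to -1.28.

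The general markers of cycling cells followed the same order. Mki67, which encodes the Ki-67 antigen of dividing cells, had 11618, 61756 and 22045 in mutants 1 to 3, against 42288, 41950 and 54572 in controls 1 to 3. Its log2 difference was -0.87 (SE 0.43, adjusted p = 0.258), since mutant 2 stood at 133% of the control mean, above every control, while mutant 1 stood at 25.1%. Top2a, which encodes the topoisomerase that untangles chromosomes, had 7890, 45248 and 22320 in mutants, against 34783, 47126 and 63054 in controls (-1.23, SE 0.46, adjusted p = 0.119). There mutant 2 lay between controls 1 and 2. Without mutant 2 both were called (-1.52 and -1.82, adjusted p = 0.00164 and 0.00258).

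A wide spread between mutants was shared by 34 of the 35 genes, all but Pttg1. For 34 of the 35 genes the order was mutant 1, then mutant 3, then mutant 2, from low to high. The highest mutant was a median of 6.06 times the lowest over these 34 genes. Among the 11719 tested genes with a control mean of at least 1000, that ratio had a median of 1.44. It reached 3.48 in 3.76% of them, but that cut-off is the smallest ratio of the 34, so all 34 pass it by definition. Controls differed less and also in a mostly fixed order. Control 1 was the lowest control for 33 of the 35 genes and control 3 the highest for 31, and the highest control was a median of 1.73 times the lowest, against 1.34 over the 11719 genes. The S phase list below had the same order of controls (medians of 70.6%, 98.2% and 132% of the control mean). The epithelial markers did not (99.4%, 107% and 93.5%). The share of all genes with these orders of mutants or controls was not counted. In those genes mutant 2 lay within the control range in 50.2% of cases, mutant 1 in 27.5% and mutant 3 in 24.6%, so that mutant 2 was nearer to the controls for genes in general as well.

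Mutant 2 was not equally high for all members. The 5 genes that exceeded all controls there, besides Pttg1, were Cenpf, Mki67, Nusap1, Kif23 and Cenpe. Its lowest shares of the control mean were those of Aurka (71.3%) and Cdk1 (74.4%). Across the 34 genes, the share of the control mean in mutant 2 was higher for genes with a longer longest coding transcript in GENCODE M21 (Spearman's rho 0.60). The values in mutants 1 and 3 had rho of 0.39 and 0.40, and all these points share libraries and controls. Across 11103 of the genes with a control mean of at least 1000 the corresponding rho was 0.11, 0.19 and 0.11 in mutants 1 to 3. The part of transcript length in these differences was not tested.

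**Figure D3:**
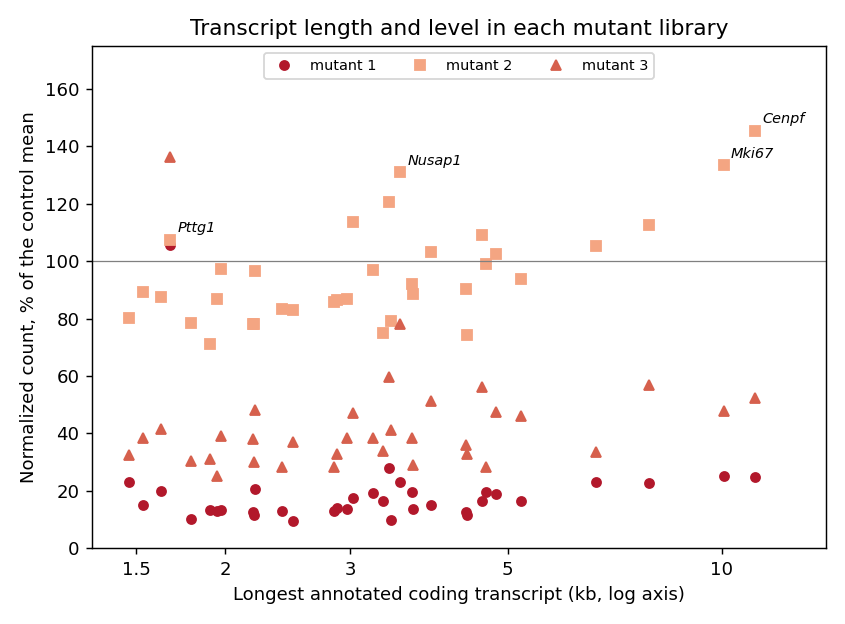
Normalized count of each of the 35 genes in the 3 mutants as a percentage of the control mean, against the length of its longest coding transcript (log axis). The mutant 2 points run from 71.3% for Aurka to 145% for Cenpf, and stay above those of mutants 1 and 3 for all genes other than Pttg1.

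Some members share annotated sequence with other genes. On the opposite strand Kif20a overlaps exons of Cdc23 over 1271 bases, Prc1 those of Rccd1 over 911, Ube2c those of Tnnc2 over 592 and Ccna2 those of Exosc9 over 510. The library kit keeps strand, but the sources used here do not give the strand setting of the counting, so these values are uncertain to that extent. Ccnb1 has 4 pseudogene copies in the table, at up to 99.2% identity, and their summed values were 1.07% to 1.64% of Ccnb1 in mutants and 1.60% to 1.94% in controls.

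Other genes of the mitotic machinery, listed with earlier results of these data known, showed the same order of mutants in the median of every list. Of 26 further kinetochore and inner centromere genes, all had a log2 difference below 0, with a median of -1.30. With all libraries 6 were called lower and 0 higher, and 21 were called lower without mutant 2. The 4 with the smallest adjusted p were Sgo1, which protects centromeric cohesion (-1.66, adjusted p = 0.0269), Cenpi (-1.57, adjusted p = 0.0291), Zwilch (-1.50, adjusted p = 0.0313) and Nsl1 (-1.74, adjusted p = 0.0341). Nsl1, a subunit of the MIS12 complex, had 426, 2286 and 549 in mutants, against 2072, 2979 and 3273 in controls. Of 18 further spindle motor and microtubule genes, all had a log2 difference below 0. With all libraries 4 were called lower (Troap, Psrc1, Spag5 and Tacc3, with log2 differences of -1.80 to -1.44 and adjusted p of 0.0336 to 0.0459). Without mutant 2, 17 were called lower. On the recovered reads edgeR called Sgo1 alone of the kinetochore list and 0 of the spindle list (adjusted p of 0.0909 to 0.129 for the 4 named).

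Regulators of mitotic entry were less uniform. Of 12 genes, 11 had a log2 difference below 0. Wee1 (-1.38, adjusted p = 0.0245) and Cks1b (-1.09, adjusted p = 0.0452) were called lower and 0 higher, and 9 were called lower without mutant 2. Wee1, the kinase that restrains Cdk1, had 1822, 5934 and 3894 in mutants, against 6735, 9970 and 11058 in controls, with every mutant below every control. Mastl, the Greatwall kinase that protects Cdk1 substrates, was close between the groups on average (0.07, adjusted p = 0.936), with 1945, 5221 and 5126 in mutants, against 3170, 3686 and 3885 in controls. It is named after its values were seen, as are Fbxo5 and the D cyclins below. Trip13, which disassembles checkpoint complexes, was the 1 gene called among 5 further checkpoint genes (-1.68, adjusted p = 0.0263).

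Among 10 genes of condensin and cohesin control and 6 further genes of cytokinesis, 0 were called in either direction with all libraries. Of these genes 5 and 3 had an unadjusted p under 0.05, and 7 and 6 were called lower without mutant 2. The smallest p belonged to Cdca5, the cohesin regulator sororin (-1.38, adjusted p = 0.0917), and Ncapd2, a condensin subunit (-1.23, adjusted p = 0.105), and in cytokinesis to Racgap1 (-1.17, adjusted p = 0.143) and Cep55 (-1.09, adjusted p = 0.189). The 17 genes of the anaphase-promoting complex and its direct regulators were nearer to the control level. Their median log2 difference was -0.27, with 0 called and 5 at an unadjusted p under 0.05. Without mutant 2, 3 were called lower, which were Fbxo5, Ube2s and Anapc15. Ube2s, which extends ubiquitin chains, had a log2 difference of -0.86 (adjusted p = 0.0816) and Anapc15 one of -0.75 (adjusted p = 0.119). The complex is known to be made in non-dividing cells too, and whether this bears on these values was not tested.

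Of 19 regulators of the mitotic program, 14 had a log2 difference below 0, and the median was -0.36. E2f8 and E2f1 were called lower and 0 higher, and 6 were called lower without mutant 2. E2f8, an atypical repressor of the E2F family, had 744, 3607 and 1344 in mutants, against 5477, 9081 and 12664 in controls (-2.48, SE 0.45, adjusted p = 0.00318). Each mutant was below each control for E2f8, mutant 2 included. E2f1, an activator of S-phase genes, had 880, 3500 and 835 in mutants, against 3531, 3938 and 5208 in controls (-1.60, SE 0.43, adjusted p = 0.0313), and mutant 2 came just under the lowest control. By edgeR E2f8 stayed called (adjusted p = 0.00523) and E2f1 did not (adjusted p = 0.0907). The MuvB subunit genes Lin9, Lin37, Lin52 and Lin54 had log2 differences of -0.46, 0.07, -0.03 and -0.42, and none was called.

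Genes of S phase had a like order of libraries. Of 24, limma called 11 lower and 0 higher with all libraries and 23 lower without mutant 2, at a median log2 difference of -1.33. The median gene stood at 23.4%, 83.4% and 33.98% of the control mean in mutants 1 to 3, against 16.3%, 90.1% and 38.5% for the 35 mitosis genes. Rrm2, the inducible subunit of ribonucleotide reductase, had 3060, 11731 and 5970 in mutants, against 15946, 38925 and 50063 in controls (-2.39, adjusted p = 0.00379), and unlike most mitosis genes it was below every control in mutant 2. Tk1, Gins2 and Mcm5 fell too, with log2 differences of -1.53, -1.66 and -1.74 (adjusted p = 0.0211, 0.0285 and 0.0267). By edgeR only Rrm2 and Tk1 of the 24 were called.

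G1 genes divided. Of 15, 12 had a log2 difference below 0, and limma called 4 lower (Ccne1, Cdkn1c, Cdkn2a and Ccne2) and 0 higher. Ccne1, the gene of cyclin E1, had 506, 2344 and 743 in mutants, against 2394, 4196 and 5685 in controls (-2.01, adjusted p = 0.0139), and Ccne2 had a log2 difference of -1.45 (adjusted p = 0.0469). Cdkn1c, the inhibitor p57, had 1118, 1751 and 1303 in mutants, against 2147, 3516 and 4201 in controls (-1.21, adjusted p = 0.0153), and Cdkn2a had a log2 difference of -3.23 (adjusted p = 0.0326). Cdkn2a was scarce, with 2.27, 47.8 and 4.13 normalized counts in mutants, against 78.2, 87.7 and 94.7 in controls, and mutant 1 was under the value of 3 reads there (3.41). By edgeR Ccne1 and Cdkn1c stayed called, while Cdkn2a (adjusted p = 0.119) and Ccne2 (adjusted p = 0.0667) were not called. Cdk4, which limma did not call, was called by edgeR. The D cyclin genes Ccnd1, Ccnd2 and Ccnd3 had log2 differences of -0.14, -0.05 and -0.49, and none was called (adjusted p of 0.246 to 0.950).

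**Figure D4:**
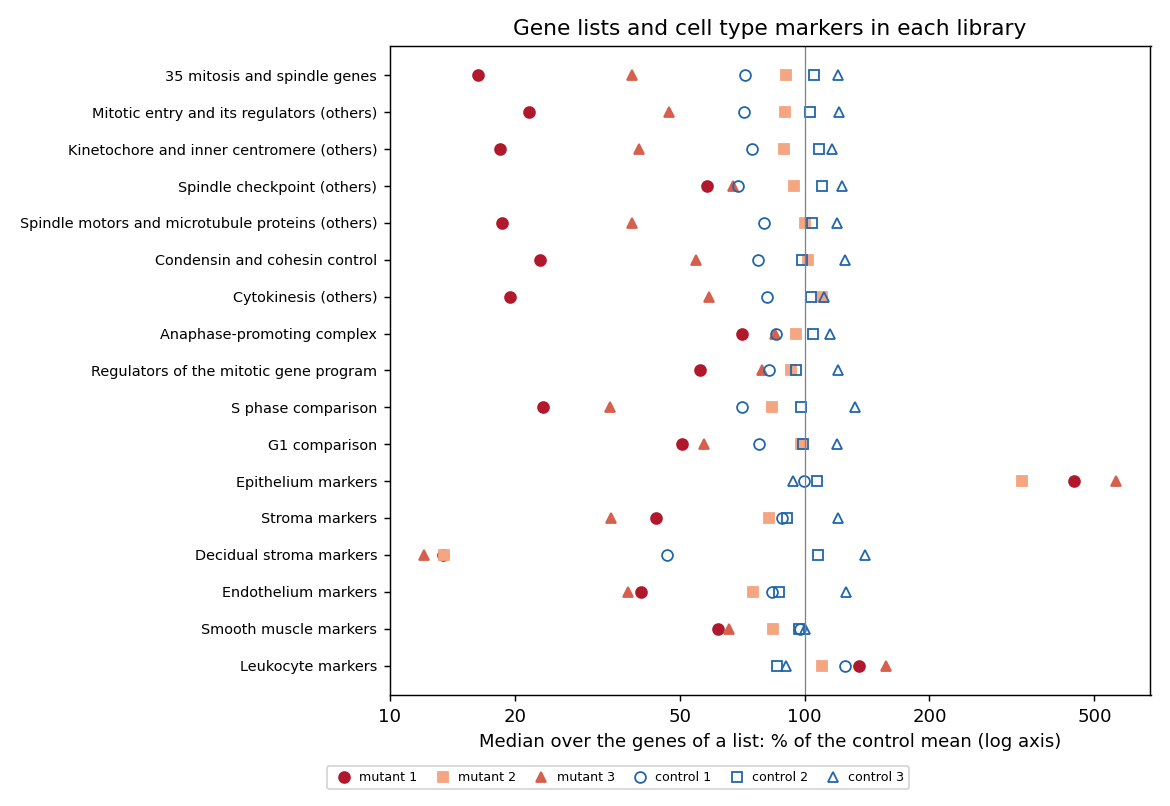
Median over the genes of each list of the normalized count as a percentage of the control mean (log axis), for the 35 mitosis genes, the other cell cycle lists and the markers of cell types. In mutant 2 the cell cycle lists lie at 83.4% to 110% but decidual markers at 13.5% and epithelial markers at 335%, on the same side as in mutants 1 and 3.

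Stromal and endothelial markers were, like the mitosis genes, nearer to the control level in mutant 2. Decidual and epithelial markers stood apart from the controls in every mutant by their sums. The part of cell types in the differences of the mitosis genes was not tested. The summed level of 8 stromal markers was 1008850, 1815000 and 915686 in mutants 1 to 3, against 1750580 to 2423670 in controls, and that of 6 endothelial markers was 37836, 77320 and 38057 in mutants 1 to 3, against 93990 to 156828 in controls. Mutants 1 and 3 were thus low in both, and the stromal sum of mutant 2 lay within the control range while its endothelial sum lay below it. By single stromal markers, mutant 2 was below every control for 4 of 8, within their range for 3 and above it for 1, at a median of 82.0% of the control mean. The 4 stromal markers called lower were Hand2, Pdgfra, Hoxa11 and Vim (by edgeR Vim was not called, adjusted p = 0.058). Of the 6 endothelial markers 5 were called lower. All 8 epithelial markers were called higher, with sums of 375442 to 703212 in mutants, against 118125 to 134172 in controls. The 6 decidual markers summed to 39050 to 58750 in mutants, against 103870 to 266572 in controls, and 4 were called lower. Bmp2, a growth factor of the decidua, had 1059, 1139 and 1250 in mutants, against 6439, 24214 and 27497 in controls, so that mutant 2 was as low as the other mutants for this gene while its mitosis genes were not.

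Leukocyte markers summed to 31051 to 42487 in mutants, against 24691 to 35042 in controls, and 0 of 7 were called in either direction, with 2 at an unadjusted p under 0.05. Natural killer cell markers summed to 9039 to 23304 in mutants, against 11337 to 16476 in controls, and red cell markers to 48526 to 199083 in mutants, against 64800 to 89513 in controls. In each of these lists 0 of 5 were called by limma, with 1 natural killer cell marker and 0 red cell markers at an unadjusted p under 0.05. Of smooth muscle markers 1 of 6 was called lower, with sums of 396451 to 530990 in mutants and 644640 to 699096 in controls. Markers of the embryo and trophoblast summed to 536 to 921 in mutants, against 829 to 1677 in controls. Among them the pluripotency gene Pou5f1 was scarce, at 0 to 11.4 normalized counts in mutants and 0.879 to 28.9 in controls. Of the 5 found, Elf5 was called higher and Tfap2c lower (log2 differences of 3.51 and -2.88), and Sox2 and Prl3d1 were not analysed here. Adipocyte markers, with sums of 410 to 2572 in mutants and 59.1 to 3144 in controls, had 0 of 4 called. The list of ovary and oviduct had 1 of 5 called higher, Ovgp1, with sums of 9190 to 18300 in mutants and 1845 to 3358 in controls. Most of that list went the other way, 4 of the 5 having a log2 difference below 0. Its median marker stood at 79.1%, 56.7% and 15.9% of the control mean in mutants 1 to 3.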

How the data were processed

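Libraries from 6 uteri were made with a stranded mRNA kit, as the labels' protocols state. The submitters' processing notes name HISAT2, HTSeq and DESeq without versions or settings; the sources used here give no genome build. The deposited table is titled as FPKM, but 100% of the values of each library came out whole when divided by the library's lowest nonzero value (tolerance 1e-06), so it holds a signal made by the authors from read counts divided by a size factor. Whole reads were recovered from these steps.

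The test was limma 3.58.1 (R 4.3.3, eBayes with trend) on log2(value + 1), for genes with a mean of at least 0.5, with Benjamini-Hochberg adjustment over all 36154 genes and a threshold of 0.05. Unless another tool is named, adjusted p-values come from it. Fold changes of low genes are understated on this scale. edgeR 4.0.16 (quasi-likelihood) and DESeq2 1.42.0 were run on the recovered reads, and limma and edgeR were tried on simulated data. Each simulated gene varied on its own, so that trial does not cover genes that shift together in a library. Replicate numbers were not used to pair the mice in this test. Other settings were 2 pseudocounts, 2 filters, 2 scalings, 2 forms of eBayes, a replicate block and each library left out; edgeR without mutant 2 was chosen after seeing the data. The members and lists were chosen with earlier results of these data known. All 35 members are named, and from other lists up to 4 called genes with the smallest adjusted p, or 2 with the smallest p where none was called.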

Additional observations from a re-analysis of the deposited data

How the results depend on the processing

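The count of 6 mitosis genes called lower by limma depended on every setting tried but 1. It was 3 with a pseudocount of 0.5, with one of 5, with TMM scaling and with equal library totals, 1 with no filter or with a mean of at least 10, and 0 with eBayes without trend, with the robust form or with edgeR. DESeq2 kept the count at 6. The count was 24 with a replicate block. Of all genes tested, limma called 4.08% lower with all 6 libraries and 7.84% without mutant 2, and edgeR called 3.58%. DESeq2 called 5.87% of the genes for which it gave an adjusted p. The shares for the other settings are not given here, so those counts alone do not set the members apart from other genes. Whether the replicate numbers pair the mice was not established. Deviations from the group means had correlations of 0.38, 0.01 and 0.03 for numbers 1 to 3 over 17979 genes, against 0.34 for control 3 with mutant 2. Only number 1 correlated best with itself in both groups. With each library left out in turn the count ran from 0 to 34, with 34 called without mutant 2 by edgeR as well. The count of genes called higher was 0 in all settings, and the median log2 difference of the 35 genes lay between -2.02 and -0.74. Over all genes, the 1476 lower and 1929 higher genes became 315 and 683 with eBayes without trend, and ranged from 315 to 2813 and from 1013 to 2598 with libraries left out (3133 lower genes by edgeR without mutant 2). The log2 difference of Nusap1 turned positive without mutant 1 (0.040) and was -1.21 without mutant 2. Without trend and with the robust form 1 member had an unadjusted p under 0.05, and the cause of these losses was not tested. The all-gene median log2 difference moved by less than 0.1 under every scaling. Each member had at least 368 reads in every library, and the effect of depth on the calls was not tested.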
